A study of Homo sapiens with 74 samples.

Results

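The promoters of 8 protein-coding genes, POLR1B, TOMM20, NFE2L2, RBX1, CARM1, CHD1, DEGS1 and IGHMBP2, were followed through Cut&Run peak lists of 36 zinc-finger proteins (ZFPs). The genes were selected on the recurrence and the fold of their promoter peaks in these same lists, so that how often and how strongly they were called is a description here and was not tested. Every peak with an edge within 1 kb of any annotated transcription start site (TSS) of a member was taken, which gave 189 peaks for the 8 genes out of 92122 peaks in all and 20020 protein-coding genes. At least 1 member was called in 53 of 72 lists and for 30 of 36 ZFPs.

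In Cut&Run, an antibody brings a nuclease to the chromatin where a protein sits, and the DNA fragments it releases are sequenced. HEK293T, an easily transfected human embryonic kidney line, received a plasmid that carried the open reading frame of a single ZFP with a C-terminal V5 tag under the EF1-alpha promoter, and its chromatin was probed with a V5 antibody after 48 h. By their labels the 36 groups differ in the ZFP: APEX2, BRCA1, CISD1, CNBP, CNOT4, CPSF4, CPSF4L, CTCF, G2E3, GIN1, GTF3C4, LIN28B, MAZ, MBNL1, NANOS2, PHF7, RBM5, RNF113A, RNF14, SALL4, SNRPC, TEX13A, TRIM55, U2AF1, WBP4, ZC3H3, ZFP36L1, ZMAT3, ZMAT5, ZNF2, ZNF22, ZNF317, ZNF574, ZNF593, ZNF706 and ZNF800. Each has 2 replicates, and each replicate came from its own well. Un-transfected cells taken through the same V5 immunoprecipitation, the mock IP, were the control in peak calling, and no peak list of theirs was used. Each library was called against the mock IP of its batch, so the groups may also differ in batch and control, whose part was not tested. The proteins were expressed from plasmids, so the lists describe the tagged and not the endogenous proteins. Peak lists hold no marker by which the identity of the cells could be checked. The fold given for a peak is the library's fragment level over the mock IP background at the summit, with 1 added to both, as the authors' peak caller wrote it. Lists held 15 to 8702 peaks, with a median of 631.

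Several lists stand apart. All ZFPs with deposited lists were kept, although the study's summary table leaves out the Cut&Run genes of CPSF4, MBNL1, SNRPC, TRIM55, ZC3H3 and ZMAT5. The fold and p-value of a peak together give the whole number of fragments at its summit in 63 of the lists. In replicate 2 labelled TRIM55 and replicate 2 labelled ZMAT5, 96.5% and 98.7% of the peaks rested on a single fragment, and replicate 2 of ZC3H3 held 15 peaks. The background level was also far below 1 fragment in replicate 1 labelled MBNL1, with a lowest value of 0.00224. Peaks on exons of the gene that its plasmid encodes were found in both replicates of 32 ZFPs, and their origin was not tested. Replicate 1 of MBNL1, replicate 2 of TRIM55 and both replicates of ZMAT5 and of U2AF1 had 0, so these 6 libraries are named by their label, as in replicate 1 labelled MBNL1.

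A promoter is the stretch around a TSS where RNA polymerase and transcription factors assemble, and many promoters of genes that all cells use lie in CpG islands and hold GC boxes, short words that zinc-finger factors of the Sp family bind. Open promoter chromatin is readily cut by nucleases, and Cut&Run is usually read against a control immunoprecipitation. The 8 genes have diverse roles. POLR1B encodes the second-largest subunit of RNA polymerase I, which transcribes ribosomal RNA, and TOMM20 a receptor of the translocase that brings proteins into mitochondria. NFE2L2 encodes NRF2, the transcription factor of the oxidative stress response, and RBX1 the RING subunit of cullin ubiquitin ligases, among them the ligase that destroys NRF2. CARM1 is an arginine methyltransferase that acts on histone H3, and CHD1 is a chromatin remodeler that binds methylated histone H3. DEGS1 is the desaturase that makes ceramide, and IGHMBP2 is a helicase with a zinc finger.

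The sequences shown here are those where a motif lay next to the summits of a member, with the CHD1 summit window beside them as one without. They were read from hg38, 100 bp to each side of the median summit, and are written 5′ to 3′ along the strand of the gene. In the TOMM20 window the capitals mark an E-box (CACGTG), the core of an NRF1 site with any middle base (GCGCANGCG) and an ETS site (CCGGAAGT). In CARM1 and POLR1B they mark GC boxes (GGGCGG, or CCGCCC on the other strand), and in NFE2L2 the CTCF core, which reads on the opposite strand of the gene. The CHD1 window held none of the letters searched. Only the 30 bases around a motif are shown for POLR1B and NFE2L2, whose windows lie in annotated exons of these genes. Exons of noncoding genes were not looked up for any window.
TOMM20, chr1:235128846-235129046, minus strand: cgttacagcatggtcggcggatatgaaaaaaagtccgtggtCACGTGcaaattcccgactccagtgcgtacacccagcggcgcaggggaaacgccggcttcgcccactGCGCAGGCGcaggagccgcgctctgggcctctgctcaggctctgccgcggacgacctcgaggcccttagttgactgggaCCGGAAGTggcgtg
CARM1, chr19:10871079-10871279, plus strand: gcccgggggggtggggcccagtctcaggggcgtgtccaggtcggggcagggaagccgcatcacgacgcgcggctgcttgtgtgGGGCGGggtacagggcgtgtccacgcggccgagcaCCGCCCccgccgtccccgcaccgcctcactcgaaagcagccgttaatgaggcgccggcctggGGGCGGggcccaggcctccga
CHD1, chr5:98929256-98929456, minus strand: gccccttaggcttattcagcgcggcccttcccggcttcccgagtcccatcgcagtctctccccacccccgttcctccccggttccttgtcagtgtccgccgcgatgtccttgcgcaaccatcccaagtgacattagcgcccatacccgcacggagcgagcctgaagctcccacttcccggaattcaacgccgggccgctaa
POLR1B GC box, chr2:112542224-112542253, plus strand: gggagatgagtgGGGCGGaatatgggagaa
POLR1B GC box, chr2:112542346-112542375, plus strand: ccgcagggcctaGGGCGGgtggaacgagag
NFE2L2 CTCF core, chr2:177263643-177263672, minus strand: ggacgcggtGCCCCCTGGTGGcgctcaccg

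POLR1B was called for the most ZFPs. It had a peak in 34 lists of 21 ZFPs, and in both replicates of 13. NFE2L2 followed with 35 lists, 20 ZFPs and 15 in both replicates. RBX1, CARM1 and CHD1 were each called for 14 ZFPs, but in both replicates of 7, 9 and 4. TOMM20 and DEGS1 were each called for 10 ZFPs, and in both replicates of 5 and 3. IGHMBP2 was called for 7 ZFPs, and in both replicates of 3. Over all 20020 protein-coding genes, 55.8% had such a peak for at least 1 ZFP, 12% for at least 6 and 2.32% for at least 10, with a median of 1 ZFP. All 8 members lie in the 12% and all but IGHMBP2 in the 2.32%, which follows from how they were selected. At least as many ZFPs as at POLR1B were found at 18 genes, POLR1B included, at least as many as at NFE2L2 at 23 genes and at least 14 at 62 genes. The highest count was 36, at EEF1A1, whose promoter is on every plasmid. Without TRIM55, ZC3H3 and the libraries labelled ZMAT5 and U2AF1, the counts were 19 ZFPs for POLR1B, 17 for NFE2L2, 13 for RBX1, 14 for CARM1, 12 for CHD1, 10 for TOMM20, 10 for DEGS1 and 5 for IGHMBP2. Without the 6 ZFPs that the summary table leaves out, they were 17, 16, 11, 12, 10, 9, 9 and 3 in the same order of genes.

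**Figure D1:**
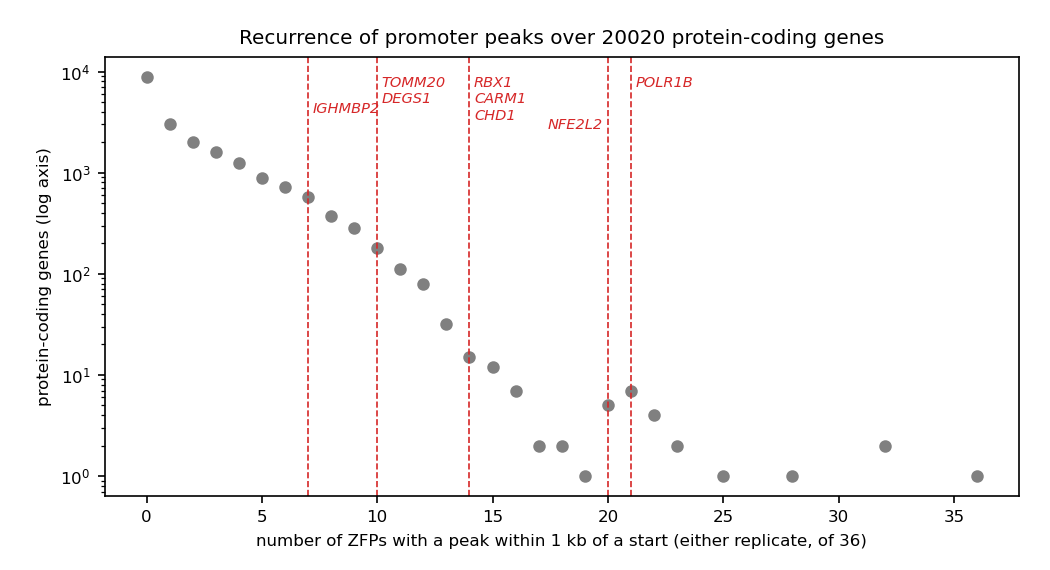
Number of protein-coding genes (log axis) by the number of ZFPs, of 36, with a peak within 1 kb of a start in either replicate. Each grey point is a count of genes and the dashed lines mark the 8 members, from IGHMBP2 at 7 ZFPs to POLR1B at 21.

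The members were shared unevenly among the ZFPs. APEX2 had a peak at all 8 genes in both replicates, and at 27.1% of all protein-coding genes in either. At IGHMBP2 its replicates lay at different places, with summits at 32887 bp and 92 bp from the representative TSS. CISD1, with 27.6% of all genes, had 7 of the members, as did ZNF22 (25.9%), PHF7 (23.5%), G2E3 (21.7%) and GIN1 (13.9%). SNRPC also had 7, with a peak at 4.73% of genes, but its replicates differed, with 6 members in replicate 1 and 2 in replicate 2. CTCF, the factor that insulates chromatin domains, had NFE2L2, RBX1, CARM1 and CHD1, and 13.5% of all genes. MAZ, a zinc-finger factor of GC-rich promoters, and ZNF593 had the same 4 members in both replicates, POLR1B, TOMM20, NFE2L2 and CARM1, with peaks at only 1.31% and 2.62% of all genes. CNOT4 had POLR1B alone in both replicates, with 0.425% of genes, and ZNF317 had POLR1B and IGHMBP2 with 0.18%. GTF3C4, LIN28B, RBM5, SALL4, ZNF574 and ZNF800 had 0 members.

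Calls went with the length of the list. The 34 lists with POLR1B held a median of 1053.5 peaks, against 460 in the other 38. The gap was wider for CHD1, with 2848 peaks in the 18 lists that had it and 460 in those that did not. Long lists lacked members too, since replicate 1 of PHF7, with 6284 peaks, had no peak at TOMM20, and replicate 1 of CISD1, with 8702, had none at IGHMBP2. The part of list length in these counts was not tested.

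**Figure D2:**
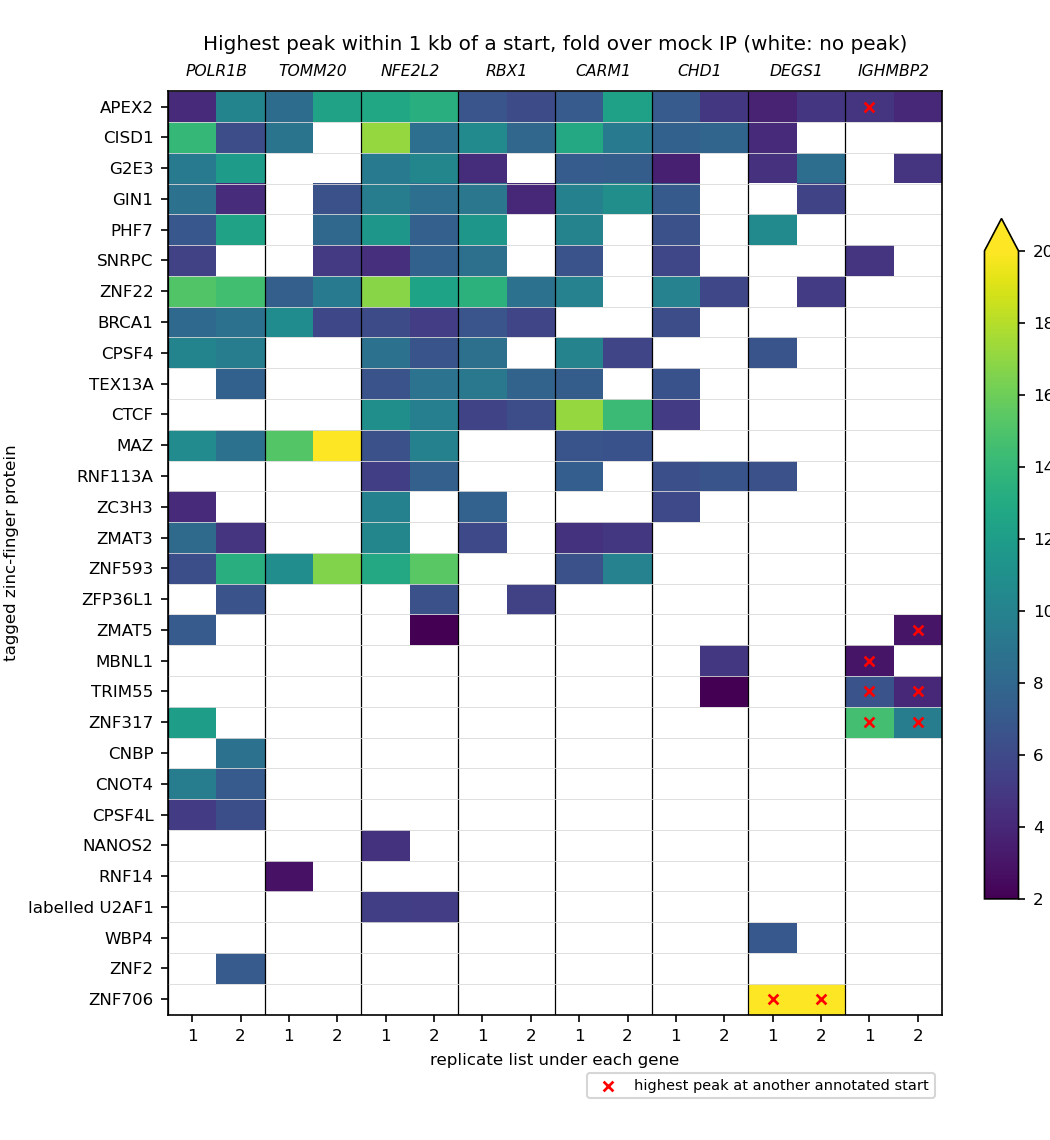
Fold over the mock IP of the highest peak within 1 kb of a start, for each of the 8 genes (columns, replicates 1 and 2) in the 30 ZFPs with at least 1 member (rows); white is no peak and a red cross marks a highest peak at another annotated start. POLR1B and NFE2L2 fill most cells of the upper part, 7 of the 10 IGHMBP2 lists carry a cross, and the ZNF706 cells lie past the end of the colour scale at 690 and 649.

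POLR1B has its representative TSS on chromosome 2 at 112542465, on the plus strand of hg38, and no other gene starts within 1 kb. The fold over its 34 lists was 4.11 at the lowest, 8.48 at the median and 15.1 at the highest. The ZNF22 replicates were the highest pair, with 15.1 and 14.6. Other pairs were uneven, as in APEX2, with 4.20 and 10.1, and ZC3H3 had 4.11 in replicate 1 and no peak in replicate 2. Among the promoter peaks of their own list, which numbered 5 to 4988, these folds had a median percentile of 91.2 and ranged from 3.47 in ZC3H3 replicate 1 to 99.9 in ZNF22 replicate 1, and fold was part of how the genes were selected. They rested on 10 to 45 fragments, with a median of 22.5. The summits of the highest peak in all 34 lists lay upstream of the TSS, between -284 and -82 bp. Their median was -178.5 bp, and 33 of them lay within 100 bp of that median. A smaller second peak in ZNF593 replicate 2 lay downstream, at 814 bp with a fold of 6.52. A GC box starts at -229 and another at -107 bp, on either side of the median summit. Other POLR1B transcripts start farther upstream, so the upstream summits fall in an annotated exon outside the coding sequence.

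TOMM20 lies on chromosome 1, with its TSS at 235128837 on the minus strand. A small nucleolar RNA gene, SNORA14B, starts 900 bp into the gene on the same strand. Its fold was 2.87 at the lowest, 8.91 at the median and 20.4 at the highest over 15 lists. The MAZ replicates had 15.2 and 20.4, those of ZNF593 10.8 and 16.6, and those of APEX2 8.33 and 12.4. The replicates of BRCA1 had 10.7 and 5.94, and RNF14 had a single peak of 2.87 in replicate 1. The summits were the most tightly placed of the 8 genes, from -126 to -65 bp with a median of -109 bp, all upstream. The peaks were narrow, with a median width of 171 bp, against 576 bp at POLR1B. The NRF1 core starts at -101 bp, the E-box at -168 bp and the ETS site at -22 bp. The most fragments of any member were counted here, with a median of 31 and 83 in replicate 2 of ZNF593.

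NFE2L2 lies on chromosome 2, with its TSS at 177264727 on the minus strand and a lncRNA, ENSG00000222043, that starts on the opposite strand 368 bp into the gene. Its fold was 2.00 at the lowest, 8.82 at the median and 17.2 at the highest over 35 lists. CISD1 had 17.2 and 8.56 in its replicates, ZNF22 16.8 and 12.4, ZNF593 12.8 and 15.4, and CTCF 10.96 and 9.77. The lowest fold was the peak of replicate 2 labelled ZMAT5, which rested on 1 fragment. Of the highest peaks at representative starts, those of NFE2L2 alone had a median summit more than 124 bp into the gene: it lay 1016 bp downstream of the TSS, and 31 of 35 summits were within 100 bp of that place. Among peaks that cover the TSS, found in 4 lists, the median summit was at 258 bp. The exceptions were replicate 1 of PHF7 at 326 bp, replicate 2 labelled ZMAT5 at 190 bp, replicate 1 of ZC3H3 at 908 bp and replicate 1 of RNF113A at 1140 bp. This place is in an exon of other NFE2L2 transcripts. The gene has 44 annotated starts, and in 31 lists the farthest downstream start that the highest peak covered was one at 1077 bp. Such a peak could cover other starts as well, as in replicate 1 of PHF7, whose peak also covered the TSS. The start at 1077 bp is thus not shown to be the one closest to the summits. The CTCF core spans 1064 to 1075 bp, and the summits of the CTCF lists lay at 981 and 979 bp. Smaller second peaks near the TSS itself were called in several lists, such as -173 bp in APEX2 replicate 2, with a fold of 5.57, and -207 bp in ZNF22 replicate 2, with 6.24.

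RBX1 lies on chromosome 22, with its TSS at 40951378 on the plus strand, and no other gene starts within 1 kb. Another annotated start of RBX1 itself lies at -31 bp. Its fold was 3.99 at the lowest, 7.63 at the median and 13.6 at the highest over 21 lists, the highest being ZNF22 replicate 1. ZNF22 replicate 2 had 8.71, the CISD1 replicates 10.5 and 7.96, and the GIN1 replicates 9.10 and 3.99. The highest peak of a list covered the TSS in 19 of 21 lists, and in APEX2 replicate 2 a smaller second peak covered it. The summits of the highest peaks lay on both sides of the TSS, 7 upstream and 14 downstream. They ranged from -702 to 363 bp with a median of 108 bp. That median was 14 to 114.5 bp with a replicate left out, and 39 bp with −log10 q of at least 3. A median of 10 fragments stood behind a summit.

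CARM1 lies on chromosome 19, with its TSS at 10871553 on the plus strand, and no other gene starts within 1 kb. Its fold was 4.67 at the lowest, 7.39 at the median and 17.2 at the highest over 23 lists. CTCF had the highest pair, 17.2 and 14.3, followed by CISD1 with 12.9 and 9.32 and GIN1 with 9.94 and 10.9. The summits of the highest peak in all 23 lists lay upstream, between -616 and -254 bp with a median of -374 bp. Those peaks covered the TSS in only 2 lists. Smaller peaks lay on a coding exon near another annotated start in G2E3 replicate 2 and PHF7 replicate 1. Their summits were at 50088 and 50117 bp, with folds of 4.16 and 4.86. GC boxes start at -391 and -294 bp, and a further GC box on the other strand at -356 bp. A median of 9 fragments stood behind a summit.

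CHD1 lies on chromosome 5, with its TSS at 98929007 on the minus strand. The divergent lncRNA CHD1-DT starts 164 bp upstream on the opposite strand, so that CHD1 has a head-to-head neighbour, as 19.7% of protein-coding genes do within 1 kb. Its fold was 2.00 at the lowest, 6.34 at the median and 9.97 at the highest over 18 lists. ZNF22 replicate 1 was highest, and its replicate 2 had 5.81. CISD1 had 7.58 and 7.89, and RNF113A had 6.43 and 6.70. Of the 14 ZFPs, 10 had a peak in a single replicate, the largest such number among the members, and the peak of replicate 2 labelled TRIM55 rested on 1 fragment. The summits of the highest peak in each list were scattered, from -686 to 844 bp with a median of -348.5 bp. Of these, 16 of 18 lay upstream of the CHD1 TSS. The median summit lay farther upstream than the start of CHD1-DT, on the side into which that lncRNA is transcribed. Which of these genes the peaks belong to was not tested. Among peaks that cover the TSS the median summit was at -95 bp. Smaller peaks lay downstream in replicate 1 of APEX2, GIN1 and PHF7, at 784, 311 and 505 bp. A further smaller peak of APEX2 replicate 1 lay upstream, at -83 bp.

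DEGS1 lies on chromosome 1, with its TSS at 224183240 on the plus strand. At this start it was called in 11 lists of 9 ZFPs, with a fold of 3.82 at the lowest, 5.70 at the median and 10.6 at the highest, in PHF7 replicate 1. The G2E3 replicates had 4.59 and 8.53, and those of APEX2 3.82 and 4.87. Only these 2 ZFPs had both replicates there. The summits spread from -140 to 599 bp with a median of 124 bp, which was -12 bp among peaks that cover the TSS and 38.5 to 194 bp with a replicate left out, and the fold percentile within the list had a median of 67.7, below the other members with more than 3 lists.

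The third ZFP with both replicates at DEGS1 was ZNF706, and its peaks lay elsewhere. Their folds were 690 and 649, and their summits were -7661 and -7664 bp from the representative TSS, at another annotated start of DEGS1. The peak of replicate 1 spanned chr1:224175477-224175787 and covered ENSG00000236773, a processed pseudogene, from 224175476 to 224175706. Of the 228 bases of the ZNF706 coding sequence, 225 were identical to this stretch (98.7%). The same lists had peaks on the coding exons of ZNF706 itself, with folds of 404 and 325 in replicate 1 and 373 and 271 in replicate 2. The transfected plasmid carries that coding sequence and the un-transfected control does not. Whether plasmid fragments make up the peak at DEGS1 was not tested.

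IGHMBP2 lies on chromosome 11, with its TSS at 68903891 on the plus strand, head to head with MRPL21, a mitochondrial ribosomal protein gene that starts 59 bp upstream and was called for 3 ZFPs. The name of a promoter peak held for few of its peaks. At the representative TSS it was called in 3 lists, in APEX2 replicate 2 with a fold of 3.99, G2E3 replicate 2 with 4.75 and SNRPC replicate 1 with 4.75, on 4 to 5 fragments, and in no ZFP in both replicates. The other 11 of its 14 peaks lay by starts annotated inside the gene, and all 11 overlapped coding exons. Coding bases make up 9.53% of the gene. That share of single bases is no expectation for peaks of 170 to 758 bp taken near annotated starts. Whether exons held more peaks than expected was not tested. The highest of the 11 peaks belonged to ZNF317, with 14.6 and 9.18 in replicate 1 and 9.60 in replicate 2. The peaks lay about the same exons in different ZFPs, with summits at 4417 bp in ZNF317 replicate 1, 4513 bp in replicate 2 labelled TRIM55 and 4322 bp in replicate 2 labelled ZMAT5. Farther on, summits lay at 32743 bp in ZNF317 replicate 1, 32868 bp in ZNF317 replicate 2, 32541 bp in TRIM55 replicate 1, 32698 bp in replicate 1 labelled MBNL1 and 32887 bp in APEX2 replicate 1. At these summits ZNF317 had 11 to 18 fragments, TRIM55 replicate 1 had 7 and APEX2 replicate 1 had 5. Replicate 2 labelled TRIM55 had 1 at 4513 bp. Replicate 2 labelled ZMAT5 at 4322 bp and replicate 1 labelled MBNL1 had 2 each, so these summits add little to the agreement. IGHMBP2 is itself among the ZFPs that the study tagged, and its own libraries were not analysed here. Of the lists with such peaks, replicate 1 labelled MBNL1, replicate 1 of TRIM55, replicate 2 labelled TRIM55 and replicate 2 labelled ZMAT5 belong to the ZFPs that stand apart, while both of ZNF317 and replicate 1 of APEX2 do not. The origin of these exon peaks was not tested.

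**Figure D3:**
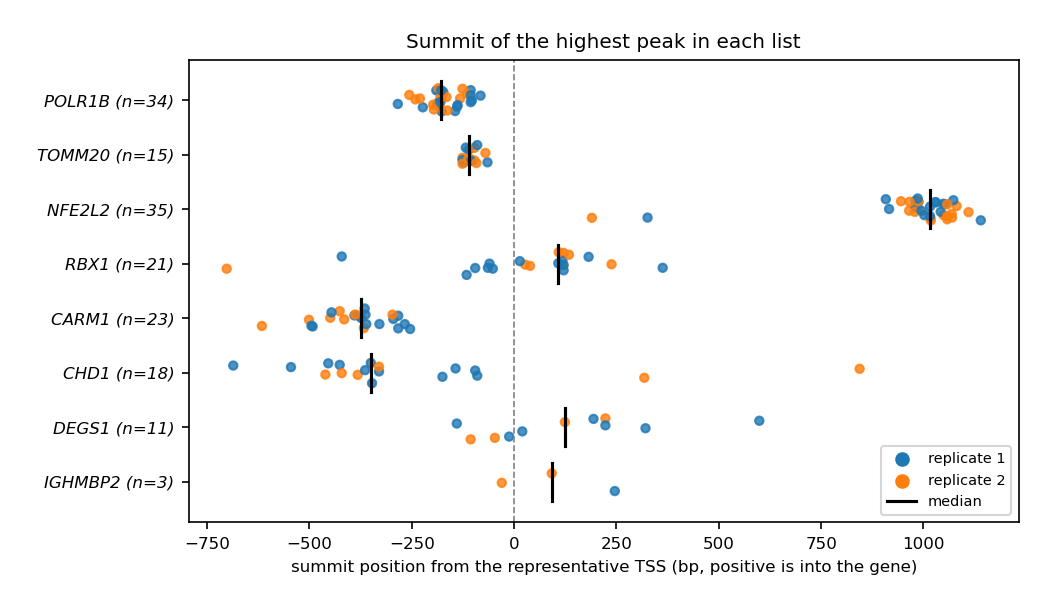
Summit of the highest peak in each list at the representative start, in bp from the TSS (positive is into the gene), for the 8 genes; points are lists, blue for replicate 1 and orange for replicate 2, and black bars are medians. TOMM20 is the tightest, from -126 to -65 bp, NFE2L2 sits about 1016 bp into the gene, and RBX1, CHD1 and DEGS1 spread over both sides of the TSS.

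The place of the summit was not used to select the genes. For the 6 members with both replicates in at least 4 ZFPs, the mean distance between the summits of the 2 replicates of a ZFP was compared with that after the lists were paired anew. At POLR1B the replicates of a ZFP lay 56.8 bp apart on average, against 54.0 bp for lists paired anew (13 ZFPs, one-sided permutation test, p = 0.609). At NFE2L2 the distances were 88.6 and 99.99 bp (15 ZFPs, one-sided permutation test, p = 0.0990), and at CARM1 78.7 and 95.6 bp (9 ZFPs, one-sided permutation test, p = 0.154). RBX1 gave 213 and 217 bp (7 ZFPs, one-sided permutation test, p = 0.4999). At TOMM20 they were 11.8 and 16.3 bp (5 ZFPs, exact permutation test over all pairings, p = 0.213), and at CHD1 99.5 and 147 bp (4 ZFPs, exact permutation test over all pairings, p = 0.0286). None passed the 0.05 threshold after Benjamini-Hochberg adjustment over the 6 tests, where the lowest permutation value was 0.171, for CHD1. The smallest p that the 105 pairings at CHD1 allow is 0.00952 (exact permutation test), which could not pass after adjustment over 6 tests without a low value at another member, so CHD1 gives no answer. At the other 5 members, replicates of the same ZFP were not detectably closer than lists of different ZFPs. This does not show that the ZFPs share a summit, since few pairs were available.

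Fragments and background differed more between the members than the folds did. The mock IP background at the summit, in scaled fragments, was 2.56 at the median of TOMM20 and 1.73 at POLR1B, against 0.263 to 0.571 at the other members. Relative to the median promoter peak of the same list, it was 5.29 times as high at TOMM20 and 3.61 times at POLR1B. The corresponding ratios were 1.38 at DEGS1, 1.11 at NFE2L2, 0.911 at RBX1, 0.800 at IGHMBP2 and 0.691 at both CARM1 and CHD1. In the median list the level at CARM1 and CHD1 was the lowest of any peak in the list, so 0.691 is that floor relative to the median and not a level measured at these promoters. TOMM20 and POLR1B thus stood at median percentiles of 96.2 and 96.0 of the background among the promoter peaks of a list, and CARM1 and CHD1 at 11.7 and 11.9. Lists of the same batch share a mock IP, so these levels are not independent between lists, and the caller takes the highest of several local and genome-wide estimates. The median folds of TOMM20 and NFE2L2, 8.91 and 8.82, thus rest on different fragment numbers, 31 at the median for TOMM20 and 12 for NFE2L2. The part of this background in the recurrence of TOMM20 and POLR1B was not tested.

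**Figure D4:**
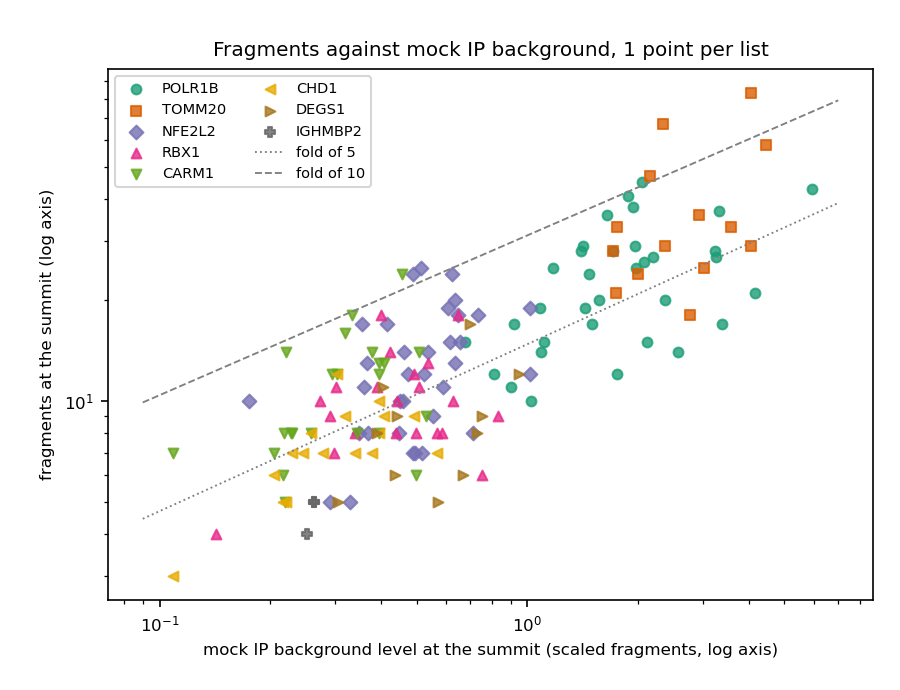
Fragments at the summit against the mock IP background level at the same place, both on log axes, for the highest peak at the representative start in each list with recovered fragments (lists at 1 fragment are left out). TOMM20 and POLR1B lie to the upper right, with median background levels of 2.56 and 1.73, and the dotted and dashed lines mark folds of 5 and 10.

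The summit windows were GC-rich, as promoter peaks in general were. Their GC content was 61.7% at POLR1B, 64.7% at TOMM20, 74.1% at NFE2L2, 60.7% at RBX1, 76.1% at CARM1, 64.2% at CHD1 and 72.6% at both DEGS1 and IGHMBP2, against a median of 69.2% over 42761 promoter peak windows of the same length. GC boxes were found in the windows of POLR1B and CARM1 and in 57.6% of all those windows. The E-box and the ETS site of TOMM20 were found in 5.52% and 2.52% of them, and the NRF1 core with any middle base in 8.95%. The CTCF core of NFE2L2 was found in 0.388%. The searches for the NRF1 core with any middle base and the CTCF core were added after the sequences were seen. Exact matches on both strands were also sought for a CCAAT box, CRE, TATA box, ZNF143 site, BANP site, AP-1 core, YY1 core and the NRF1 core GCGCATGCG, and none of these lay in a member's window. The promoters themselves, 250 bases before to 50 after the start in RefSeq (GRCh38.p14), held further matches at the representative starts of the 7 members with an entry. GC boxes lay in those of POLR1B, NFE2L2, RBX1, CARM1, CHD1 and DEGS1, and in 45.0% of 35116 RefSeq promoters. The NRF1 core with any middle base lay in TOMM20, RBX1 and CHD1 (7.52% of all), the E-box in TOMM20 and RBX1 (7.26%), the ETS site in TOMM20 and POLR1B (4.14%) and the CCAAT box in CHD1 (34.6%). A match describes the letters and not a bound site. Of the 170 words of 32 bases in each window, all were found once in the assembled chromosomes, except for 2 of DEGS1.

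Other genes of each member's pathway are given beside the shares of all protein-coding genes, 55.8% with at least 1 ZFP and 12% with at least 6, and the median gene with 1 ZFP. Of 17 further RNA polymerase I genes, 12 had a peak for at least 1 ZFP and 5 for at least 6, with a median of 2 ZFPs, led by UBTF (8 ZFPs), the architectural factor of ribosomal DNA, and by POLR2F (7), a subunit shared between polymerases, and TAF1B (7). Of 12 further genes of mitochondrial outer-membrane import, 8 had a peak and 3 had at least 6 ZFPs, with a median of 2. The channel gene TOMM40 had 15 ZFPs, more than the 10 of TOMM20, and TOMM6 and TOMM70 had 6 each. In the NRF2 pathway 15 of 17 had a peak and 6 had at least 6 ZFPs, with a median of 5, the highest among these lists. SQSTM1, an adaptor of selective autophagy, had 11 and GCLM, a subunit of the enzyme that starts glutathione synthesis, had 9, as did MAFF. Of 17 further cullin ligase genes 16 had a peak and 3 had at least 6 ZFPs, with a median of 3, and UBE2M had 8 and CUL4A 7. All 9 further CHD remodelers had a peak and 1 had at least 6 ZFPs, with a median of 4, led by CHD2 (9), and CHD4 and CHD9 (5 each). These calls lay partly at other annotated starts, since at representative starts alone 7 of the 9 had a peak, CHD1L for 4 ZFPs, CHD2 and CHD9 for 2 each and CHD4 for 0. The other lists, and the shares of all protein-coding genes, were likewise counted at any annotated start and are not given at representative starts. Of 10 further arginine methyltransferases 8 had a peak and 2 had at least 6 ZFPs, with a median of 2.5. PRMT1 had 13 and PRMT2 11. Of 9 helicases of the IGHMBP2 list 8 had a peak and 3 had at least 6 ZFPs, with a median of 3, led by ZNFX1 (11), above the 7 of IGHMBP2, and HELZ and UPF1 (6 each). Ceramide synthesis had the lowest median, 1, with a peak at 13 of 20 genes and at least 6 ZFPs at 2, led by SGMS1 (8) and CERS5 (6).

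The genes on other loci whose set of ZFPs was most like that of a member were found by the Jaccard index over 36 ZFPs, the shared ZFPs as a fraction of those at either gene. The closest pair was CARM1 with TOMM40 (0.933, 14 of 15 ZFPs), and TMEM87B followed (0.875). RBX1 was most like CHRAC1 (0.867), a histone-fold protein, and CANX (0.857), an endoplasmic reticulum chaperone. POLR1B was most like C14orf93 (0.826) and MAZ (0.727). DEGS1 was nearest to CDKN2D (0.818) and BRF1 (0.800), CHD1 to ZNF48 (0.813) and MYL11 (0.765), and NFE2L2 to MFSD11 and SRSF2 (both 0.800). TOMM20 was nearest to DCAF11 (0.692) and TFDP1 (0.667), and IGHMBP2 to USP9X (0.5) and CEP68 (0.444). The part of list length in these values was not tested. Among the members, all 14 ZFPs of RBX1 and all 14 of CARM1 were also ZFPs of NFE2L2, which makes 70.0% of the ZFPs of NFE2L2 in each case. POLR1B shared 16 ZFPs with NFE2L2, which is 76.2% of its own and 80.0% of those of NFE2L2.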

How the data were processed

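Cut&Run libraries of 36 ZFPs with 2 replicates each were used as 72 deposited peak lists. Per the labels and methods, the authors' reads went through adapter trimming (Trimmomatic 0.36), alignment to hg38 (bowtie2 2.3.5.1, fragment length 10 to 700 bp), duplicate removal (Picard 0.1.8) and narrow-peak calling (MACS2 2.2.7.1, FDR 0.05). Calling was done per library, with the mock IP of its batch as control. The fold (a ratio over the mock IP), the −log10 p and q values and the score are as the authors deposited them; the score was not used. Since the sources used here give neither the read total nor the batch of each library, list length and recovered fragments stand for depth. Genes and starts were taken from GENCODE 44, where the authors used UCSC knownGene. The representative start is that of the MANE Select or else the canonical transcript, and distances run from the nearest peak edge. Whole fragments and background were recovered from the 6 printed digits of fold and p, and 99.6% of peaks in 63 lists gave a whole number. The other 9 lists (GTF3C4, RNF14, ZNF574 and ZNF800, and replicate 2 of ZNF706) were scaled and gave none. Summit agreement was tested over all pairings for up to 6 ZFPs and 100000 random pairings otherwise. The pairing test, the recovery and the assignment of peaks were tested on simulated data. Members and gene lists were chosen with earlier results of these data known. Named are the 8 members, genes that start within 1 kb of them, the 2 leading genes of each pathway list (5 genes tied with the second were added) and the 2 most alike genes of each member. Alternatives were other distances and starts, thresholds on q, fold and fragments, both replicates required, each replicate left out, and 4 or 6 ZFPs left out. Computations ran in Python 3.11.15 with pandas 2.3.3, scipy 1.17.1, numpy 2.4.6 and matplotlib 3.10.9.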

Additional observations from a re-analysis of the deposited data

How the results depend on the processing

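The number of ZFPs at each of the 8 genes stayed within 1.5 times its value with limits of 500 bp or 2 kb, distances from the summit, at least 5 fragments (chosen after seeing the data), or without TRIM55, ZC3H3 and the libraries labelled ZMAT5 and U2AF1. At the representative start alone IGHMBP2 had 3 ZFPs, with −log10 q of at least 3 it had 4, with a fold of at least 5 it had 2, and without CPSF4, MBNL1, SNRPC, TRIM55, ZC3H3 and ZMAT5 (chosen after seeing the data) it had 3. Peaks required in both replicates left 13 ZFPs at POLR1B, 5 at TOMM20, 7 at RBX1, 9 at CARM1, 4 at CHD1, 3 at DEGS1 and 3 at IGHMBP2. With a replicate left out, the counts ranged from 8 to 13 at RBX1, 9 to 14 at CARM1, 6 to 12 at CHD1, 5 to 8 at DEGS1, 7 to 8 at TOMM20 and 17 to 18 at NFE2L2, and were 17 at POLR1B and 5 at IGHMBP2. At least as many ZFPs as at the least called member were found at 1686 genes, and at 5239 with representative starts, 5128 with the fold threshold, 777 with both replicates, 3131 without the first 4 ZFPs, 5754 without the 6 ZFPs, 2974 with the fragment threshold and 540 to 2330 with a replicate left out. Each of these settings changes both the calls and the count of the least called member that sets the limit, so the counts are not comparable as a change of either. With peaks that cover the TSS the median summit moved to 258 bp at NFE2L2, -95 bp at CHD1 and -12 bp at DEGS1, and without the 6 ZFPs to 72 bp at DEGS1 and 31 bp at IGHMBP2. With a replicate left out it ranged from 31 to 246 bp at IGHMBP2, 14 to 114.5 bp at RBX1 and 38.5 to 194 bp at DEGS1, and with −log10 q of at least 3 it was 39 bp at RBX1. The replicates of a ZFP lay farther apart than lists paired anew at RBX1, with 165 bp for the peak nearest to the TSS and 142 bp for peaks that cover it, at CHD1 with 173 bp for the nearest peak and at CARM1 with 73.4 bp for −log10 q of at least 3. No pairing test passed the threshold under any alternative run. Whether a replicate number marks a batch was not tested. No paired analysis was possible because no fit compared groups, and the pairing test concerns the replicates of a single ZFP. Few fragments per summit limit how finely a summit is placed.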
